A study of Mus musculus with 9 samples.

Results

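The endoplasmic reticulum (ER) is where a cell folds the proteins it secretes or places in membranes. Chaperones such as Hspa5 (BiP) hold and fold these proteins, and those that fail to fold are pulled back to the cytosol and degraded. When unfolded proteins build up, the sensors IRE1 (Ern1), PERK (Eif2ak3) and ATF6 start the unfolded protein response, whose transcription factors XBP1 and ATF6 raise chaperone and degradation genes. PERK belongs also to the integrated stress response, in which kinases phosphorylate eIF2, protein synthesis drops and the transcription factor ATF4 raises genes of amino acid supply and of recovery from stress. Macrophages that make cytokines load the ER heavily, and Toll-like receptors are known to engage IRE1 and XBP1 in these cells.

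The genes described here are 34 members of these systems, taken by symbol: 15 chaperones and folding enzymes, 6 degradation genes, 4 sensors and their transcription factors, and 9 genes of ATF4 and its targets. All 34 were found among the 22001 genes of the count table, and 33 had enough counts for testing. Chac1, an ATF4 target that degrades glutathione, had between 3 and 30 counts per library and was not tested. Its level was between 0.306 and 0.979 CPM (counts scaled to a library of 1e+06 counts) in the 9 libraries, where 3 counts stand at 0.0746 to 0.422 CPM.

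The samples were macrophages derived from the bone marrow of C57BL6 mice, which are phagocytes raised in culture, in 3 groups of 3 libraries, all at 6 h. Cells of the first group were labelled as untreated, with PBS. The second group was labelled with PAM3CSK4 at 100 µg/ml, a synthetic lipopeptide that activates Toll-like receptor 2, and the third with PAM3CSK4 at 100 µg/ml plus 3SL at 100 µl/ml, a volume and no known amount. The titles of the third group write Pamc4 and its treatment tag Pamc4-CSL, while its descriptions name PAM3CSK4 and 3SL, and the descriptions were followed. 3SL is taken to be 3'-sialyllactose, a milk sugar. These groups are called the untreated-labelled, Pam3CSK4-labelled and 3SL-labelled libraries, and no genetic change is named for any of them. The labels do not say whether the libraries of a group are separate cultures or animals, so each p-value reflects the spread of these samples alone, and that spread may be technical.

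The inflammatory genes went against the labels, so no direction below can be read as a response to the lipopeptide. Summed over Il1b, Tnf, Il6, Tlr2, Nfkbia and Acod1, all genes known to rise with Pam3CSK4, the level was 18160 to 19500 CPM in the untreated-labelled libraries and 122 to 131 CPM in the Pam3CSK4-labelled libraries. It was 14160 to 15880 CPM in the 3SL-labelled libraries. The Pam3CSK4-labelled libraries also carry the code letter D and the other 6 the letters A to C, and what the letter stands for cannot be told apart from the group. The summed level of 10 macrophage markers was 24900 to 25440, 16810 to 17290 and 24060 to 24740 CPM in the 3 groups, in the order above, and macrophage markers such as Csf1r, Lyz2 and Cd68 were high in each. Markers of other cells were far lower. The 10 neutrophil and progenitor markers summed to 578 to 609, 378 to 471 and 468 to 510 CPM. Most of that sum is S100a8 and S100a9, which were lower in the Pam3CSK4-labelled than the untreated-labelled libraries by 1.78-fold and 1.77-fold, while 5 of the 9 neutrophil markers tested were called higher there (Elane and Mpo by 2.19-fold and 2.12-fold among them) and 4 lower. The 8 dendritic cell markers summed to 8.70 to 10.4, 3.52 to 5.22 and 6.61 to 7.15 CPM, and the 9 lymphocyte markers to 10.3 to 12.1, 10.9 to 13.5 and 9.56 to 11.4 CPM. The 6 stromal markers summed to 15.7 to 17.6, 4.76 to 5.12 and 11.95 to 15.2 CPM. The part of these differences in the results was not tested, and fewer cells of a type and less RNA per cell cannot be told apart. Total counts ran from 7472482 to 43980309 per library.

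Most of the listed chaperones were higher in the 3SL-labelled libraries than in the untreated-labelled ones, the 2 groups with high inflammatory genes. The test was edgeR's quasi-likelihood test on counts, and a gene is called where its Benjamini-Hochberg adjusted p over the 11469 genes tested is under 0.05. In the 3SL-labelled versus the untreated-labelled libraries, 12 of 15 chaperones and folding enzymes were called higher, by 1.09-fold to 1.29-fold (8 of them under every alternative run), and the log2 changes of all 15 were above 0. Of all genes tested, 3.83% were called higher and 5.11% lower in that comparison. No degradation gene of 6 was called by edgeR with TMM or by DESeq2, and 1 (Edem1) had an unadjusted p under 0.05. Edem1 was called higher by edgeR with library totals alone (log2 0.136, adjusted p = 0.0165). Atf6 and Eif2ak3 of the 4 sensors and factors were higher, and Atf4 and Ppp1r15a of the 8 tested genes of the ATF4 class were lower, though both of these calls were lost without B2 (adjusted p = 0.0926 and 0.107) or without A2plus (adjusted p = 0.109 and 0.11). The median log2 change was 0.22 for the chaperones, 0.05 for the degradation genes, 0.18 for the sensors and 0.02 for the ATF4 class, against 0.00 over all genes tested. No member reached a 2-fold difference, which 0.113% of all genes reached upward and 0.0610% downward.

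Against the Pam3CSK4-labelled libraries the classes moved in more mixed ways. In the Pam3CSK4-labelled against the untreated-labelled libraries, 12 of 33 members were called higher and 11 lower, near the 39.0% and 35.9% of all genes. The lower calls of at least 2-fold were Herpud1 and Ppp1r15a, and no member was higher by that much, where 13.2% of all genes were at least 2-fold higher and 10.8% at least 2-fold lower. In the 3SL-labelled against the Pam3CSK4-labelled libraries, 17 members were called higher and 9 lower, against 34.7% and 36.8% of all genes. The 3 higher by at least 2-fold were Herpud1, Ppp1r15a and Ddit4 and none was lower by that much, where the shares of all genes were 10.5% and 12.5%. These comparisons share libraries, so the values of a gene in them are not independent. The counts also depend on the scaling. With library totals alone, without the trimmed-mean (TMM) factors, 23 members were higher and 5 lower in the first of these comparisons and 7 higher and 19 lower in the second. Of all 11469 genes tested, 6882 were then called higher and 2380 lower in the first. In the second, 2434 were higher and 6393 lower, so the shift was one of all genes and not of the members alone. The TMM factors were 0.916 to 0.927, 1.14 to 1.15 and 0.944 to 0.953 in the 3 groups, and without them the median log2 change of all genes moved to 0.34 and -0.29.

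**Figure D1:**
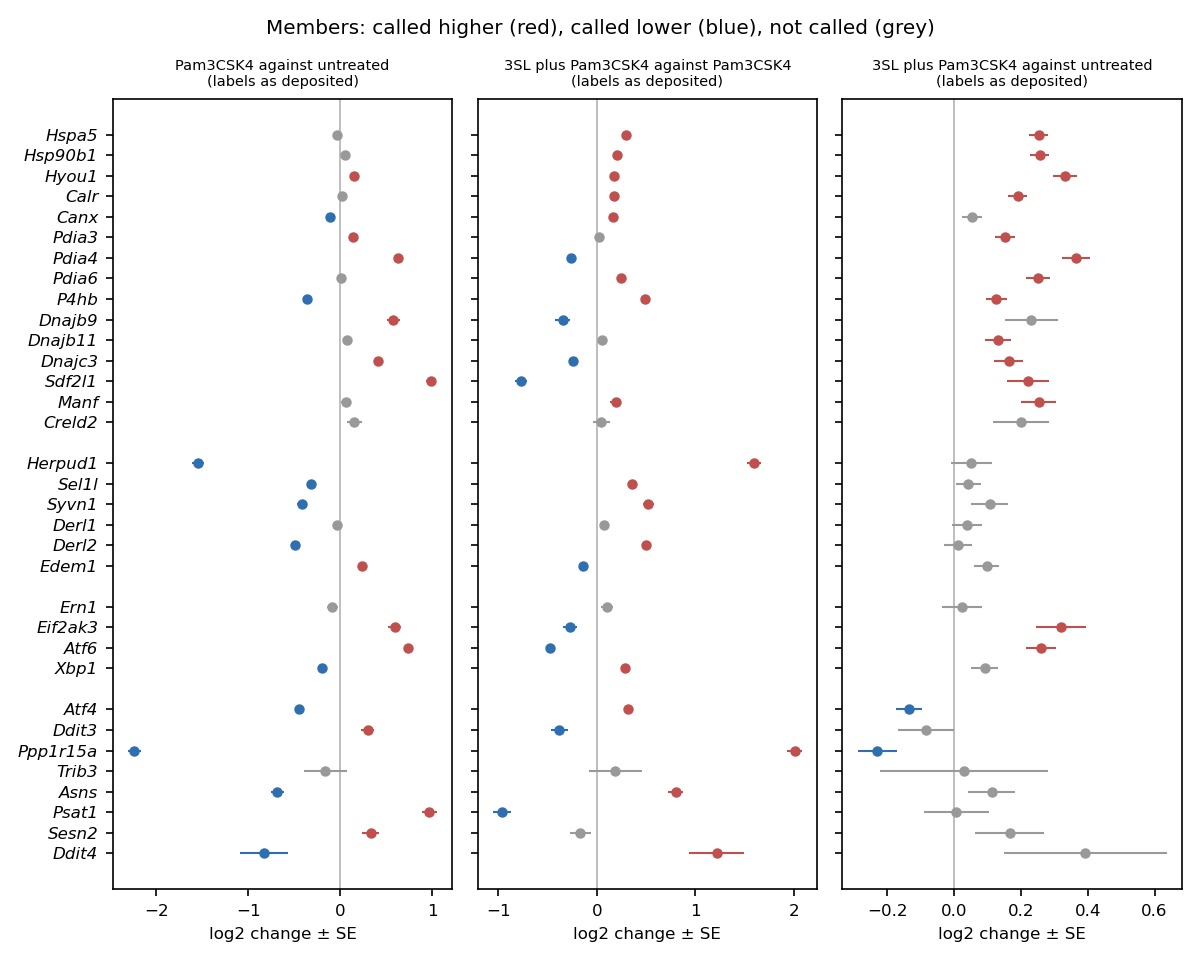
Log2 change ± SE of each tested member in the 3 comparisons, on separate horizontal scales, grouped from top to bottom as chaperones, degradation genes, sensors and their factors, and the ATF4 class. In the right panel 12 of the 15 chaperones are called higher (red), and no degradation gene is called.

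Summed over a class, the chaperones reached 6349 to 6444 CPM in the untreated-labelled libraries, 6355 to 6485 CPM in the Pam3CSK4-labelled libraries and 7174 to 7449 CPM in the 3SL-labelled libraries. On this TMM scale every 3SL-labelled library was above the other 6, which overlapped each other. Class sums were also taken with library totals alone, a use of that scaling added after seeing the data. The chaperone sums were then 5869 to 5896, 7251 to 7419 and 6831 to 7030 CPM, so that the Pam3CSK4-labelled libraries were highest. In both scalings the 3SL-labelled libraries were above the untreated-labelled ones. The 6 degradation genes summed to 888 to 906, 787 to 809 and 923 to 942 CPM, with no overlap between groups, but with library totals alone to 818 to 837, 898 to 924 and 871 to 889 CPM, where the Pam3CSK4-labelled libraries were highest. The sensors and their factors summed to 318 to 328, 368 to 380 and 355 to 364 CPM, lowest in the untreated-labelled libraries. The ATF4 class summed to 359 to 386, 276 to 292 and 337 to 362 CPM, and here the untreated-labelled and 3SL-labelled ranges overlapped above the Pam3CSK4-labelled one. Without the TMM factors its sums were 332 to 358, 315 to 336 and 321 to 342 CPM, and all 3 ranges overlapped.

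**Figure D2:**
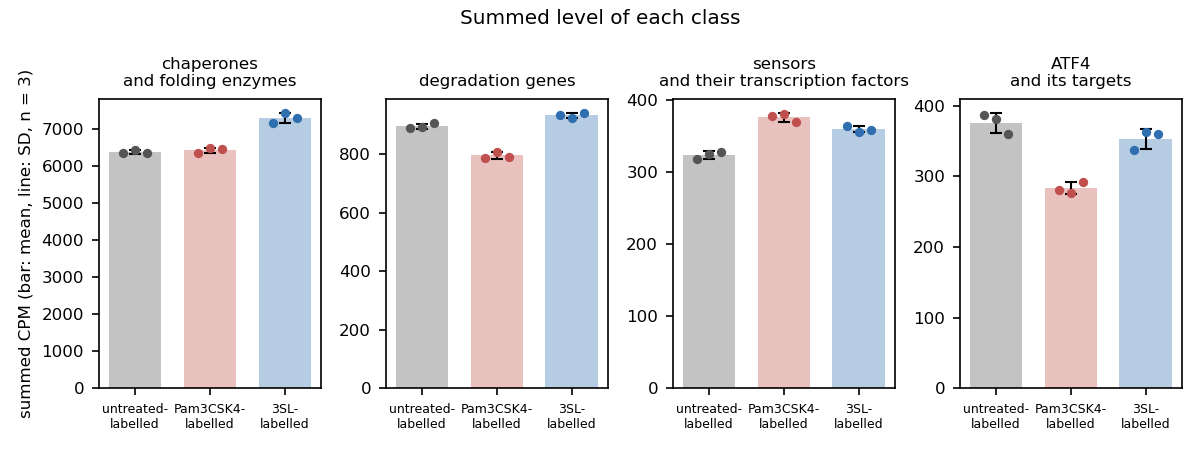
Summed CPM of the members of each class in each library (points), with the mean as a bar and the SD as a line, n = 3 libraries per group; every vertical axis starts at 0. The chaperone sum is 7174 to 7449 CPM in the 3SL-labelled libraries and at most 6485 CPM in the other 6 on this TMM scale; with library totals alone the Pam3CSK4-labelled libraries are highest, at 7251 to 7419 CPM.

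Members also differed in where the 3SL-labelled libraries lay. In 10 of 33 members all 3 of these libraries were above the other 6, which held for 4.93% of all genes tested. On the TMM scale they were 9 chaperones (Hspa5, Hsp90b1, Hyou1, Calr, Canx, Pdia6, P4hb, Dnajb11 and Manf) and Xbp1. Without the TMM factors the pattern held for 2 members, P4hb and Syvn1, and for 4.60% of all genes, so for Hspa5, Hsp90b1, Hyou1, Calr, Canx, Pdia6, Dnajb11, Manf and Xbp1 it depends on the scaling. No member had all 3 below the other 6, as 3.60% of all genes had. In 8 members all 3 lay between the other groups, which 11.5% of all genes showed: Pdia4, Dnajc3, Sdf2l1, Edem1, Eif2ak3, Atf6, Atf4 and Ppp1r15a. Without the TMM factors 13 members did, against 13.3% of all genes, 7 of these 8 among them and Atf4 not.

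Of the 13 chaperones with a promoter in the reference table, 7 hold the ER stress element. The members were listed as known genes of this response, so its frequency among them is a description and no independent result. ATF6 and XBP1 are known to act through the ER stress element, CCAAT followed after 9 bases by CCACG, and through a shorter form, ATTGG followed after 1 base by CCACG. XBP1 and ATF6 also bind the core TGACGTG, and ATF4 with its partners binds TGATGNAA, where N is any base. Each was searched on both strands in RefSeq promoters of 300 bases on build GRCm38.p6, from 250 before the start to 50 after it; 30 of the 34 members had one, and none was found for Derl1, Atf6, Hyou1 and Manf. The ER stress element was present in 8 of the 30, of which 7 were among the 13 chaperones and 1 was the degradation gene Syvn1, and in 0.119% of 32851 promoters in the table. None of the 3 sensors and factors or of the 9 genes of the ATF4 class had it in this window. The shorter form was in 2 of 30 members, Herpud1 and Dnajb11, and in 0.0365% of all promoters. The core TGACGTG was in Hspa5 alone of the members and in 2.01% of all promoters. TGATGNAA was in 4 of 30 members, Herpud1, Trib3, Asns and Chac1, and in 3.97% of all promoters. No 2 of the matches in these promoters overlapped. A match describes the letters and is not evidence of binding.

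All 9 matches of the ER stress element are shown with their neighbouring bases, to let the promoters that hold it be compared. The core of Hspa5 and the pair of motifs in Herpud1 are added because these promoters hold 2 different motifs, and the single matches in Dnajb11, Trib3, Asns and Chac1 are not shown. Each line gives the coordinates on GRCm38.p6 and the gene's strand and reads 5′ to 3′ on that strand, with the matched motif in capitals. In Hsp90b1 (second line), Calr and Creld2 the element is on the opposite strand and reads as CGTGG, 9 bases, ATTGG. The first Hspa5 line ends at the base before the GENCODE M21 gene model, and the second lies inside that model but before the RefSeq start. The other lines lie outside the gene models.
Hspa5 core (chr2:34771920-34771969, + strand): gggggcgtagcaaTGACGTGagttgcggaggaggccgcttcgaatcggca
Hspa5 element (chr2:34772020-34772048, + strand): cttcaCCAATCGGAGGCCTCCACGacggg
Hsp90b1 far element (chr10:86705628-86705666, - strand): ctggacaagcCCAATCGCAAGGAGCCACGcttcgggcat
Hsp90b1 near element (chr10:86705523-86705561, - strand): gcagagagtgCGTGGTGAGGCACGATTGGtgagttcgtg
Calr (chr8:84847065-84847103, - strand): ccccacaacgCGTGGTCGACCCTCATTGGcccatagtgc
Canx (chr11:50325790-50325828, - strand): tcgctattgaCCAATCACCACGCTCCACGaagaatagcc
Pdia6 (chr12:17266481-17266519, + strand): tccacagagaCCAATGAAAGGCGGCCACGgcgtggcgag
Dnajc3 (chr14:118937817-118937855, + strand): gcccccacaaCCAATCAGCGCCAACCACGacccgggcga
Creld2 (chr15:88819510-88819548, + strand): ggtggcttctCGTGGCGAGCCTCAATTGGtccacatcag
Syvn1 (chr19:6046522-6046560, + strand): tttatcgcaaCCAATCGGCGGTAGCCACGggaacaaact
Herpud1, ATF4-type motif then short ER stress element (chr8:94386307-94386397, + strand): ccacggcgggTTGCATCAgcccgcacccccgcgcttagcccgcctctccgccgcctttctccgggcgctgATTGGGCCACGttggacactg

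**Figure D3:**
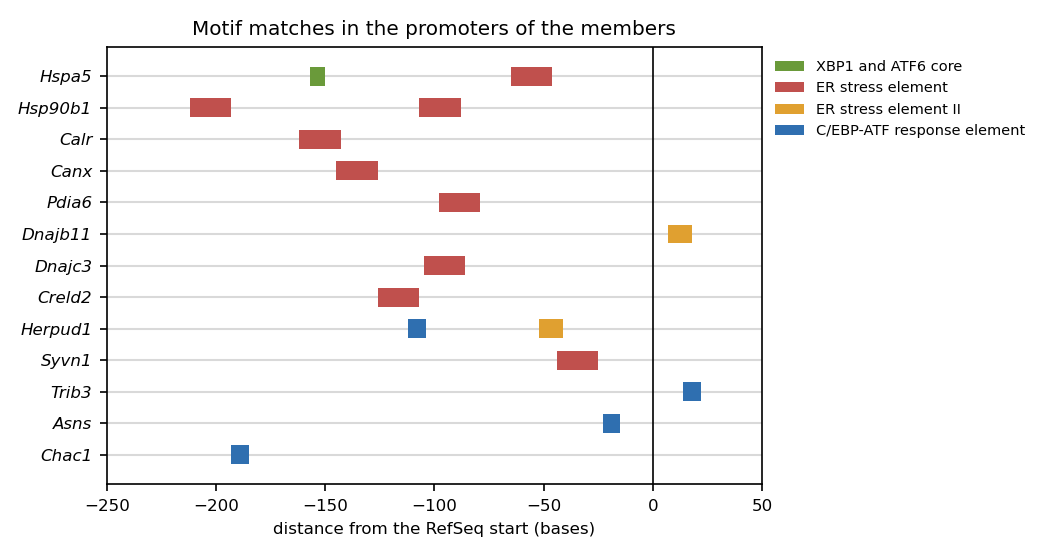
Positions of the motif matches in bases from the RefSeq start (0), in the 13 members with a match. The ER stress elements (red) lie between 212 and 26 bases before the start, and the matches in Dnajb11 and Trib3 lie after it.

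Most chaperones with the element, and most without it, were called higher in the 3SL-labelled versus the untreated-labelled libraries. Of the 7 with it, 5 were called higher (Hspa5, Hsp90b1, Calr, Pdia6 and Dnajc3), with a median log2 change of 0.20. Of the 6 others with a promoter in the table, 5 were called higher, with a median of 0.19. The share of all genes called higher was 3.83%. In the Pam3CSK4-labelled against the untreated-labelled libraries, 1 of the 7 and 4 of the 6 were called higher, with medians of 0.02 and 0.36. There 39.0% of all genes were called higher, and sets this small can fall on either side of that share. The difference between these 2 sets was not tested.

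Hspa5, Hsp90b1 and Hyou1 were each highest in the 3SL-labelled libraries on the TMM scale. Hspa5, the Hsp70 of the ER that also holds the sensors inactive, was at 1206, 1267 and 1202 CPM in the untreated-labelled libraries, 1184, 1195 and 1200 CPM in the Pam3CSK4-labelled libraries and 1421, 1466 and 1495 CPM in the 3SL-labelled libraries. The 3SL-labelled libraries were the 3 highest, 1.19-fold above the untreated-labelled ones (log2 change 0.25 ± 0.03 SE, edgeR adjusted p = 6.73e-07) and 1.22-fold above the Pam3CSK4-labelled ones (adjusted p = 9.01e-10). The Pam3CSK4-labelled libraries were 1.03-fold below the untreated-labelled ones without overlap, which was not called (adjusted p = 0.233). It was called lower with DESeq2's size factors (adjusted p = 0.0457) and turned higher without the TMM factors. Hsp90b1 (Grp94), the Hsp90 of the ER that folds Toll-like receptors and integrins, was at 991, 984 and 1001 CPM, then 1007, 1044 and 1027 CPM, then 1169, 1217 and 1167 CPM in the same order of groups. It was 1.19-fold higher in the 3SL-labelled than the untreated-labelled libraries (log2 change 0.26 ± 0.03 SE, adjusted p = 4.09e-07). Hyou1 (Grp170), the nucleotide exchange factor of Hspa5, rose in 2 steps without overlap, at 168, 169 and 174.5 CPM, then 189, 191 and 188 CPM, then 217, 212 and 215 CPM. The 3SL-labelled libraries were 1.26-fold above the untreated-labelled ones (log2 change 0.33 ± 0.04 SE, adjusted p = 3.17e-07), and the Pam3CSK4-labelled ones 1.11-fold above them (adjusted p = 3.27e-04). Against the Pam3CSK4-labelled libraries, the higher level of Hsp90b1 and Hyou1 in the 3SL-labelled ones turned lower without the TMM factors (log2 -0.066 and -0.096), and the call of Hspa5 was lost (log2 0.018, adjusted p = 0.551).

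The lectin chaperones Calr and Canx bind newly made glycoproteins. Both were 1.12-fold higher in the 3SL-labelled than the Pam3CSK4-labelled libraries, which reversed without the TMM factors (log2 -0.104 and -0.106). Calr was at 1009, 1003 and 997 CPM, then 1002, 1028 and 1021 CPM, then 1120, 1176 and 1136 CPM. The first 2 groups overlapped, and the 3SL-labelled libraries were 1.14-fold above the untreated-labelled ones (log2 change 0.19 ± 0.03 SE, adjusted p = 3.63e-05). Canx was 1.08-fold lower in the Pam3CSK4-labelled than in the untreated-labelled libraries (adjusted p = 9.00e-04), a direction that reversed without the TMM factors. It was 1.04-fold higher in the 3SL-labelled than the untreated-labelled libraries, which was not called (adjusted p = 0.299) except with library totals alone (adjusted p = 0.0378).

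Among the disulfide isomerases, Pdia4 and P4hb moved in opposite directions in the Pam3CSK4-labelled libraries. Pdia4 (Erp72) was at 88.2, 90.6 and 91.1 CPM, then 140.7, 139.6 and 137.2 CPM, then 113.8, 116.7 and 116.4 CPM. The 3 groups did not overlap, with the Pam3CSK4-labelled libraries 1.55-fold (adjusted p = 3.22e-14) and the 3SL-labelled ones 1.29-fold (log2 change 0.36 ± 0.04 SE, adjusted p = 6.43e-07) above the untreated-labelled ones. P4hb, the protein disulfide isomerase that is also a subunit of prolyl 4-hydroxylase, was at 691, 705 and 708 CPM, then 533, 556 and 546 CPM, then 762, 794.5 and 738 CPM. It was 1.29-fold lower in the Pam3CSK4-labelled than in the untreated-labelled libraries (log2 change -0.36 ± 0.03 SE, adjusted p = 4.83e-11), a call lost with library totals alone (log2 -0.052, adjusted p = 0.128). It was 1.09-fold higher in the 3SL-labelled than the untreated-labelled libraries (adjusted p = 0.0104), a call lost without the untreated-labelled library A2 or the 3SL-labelled library B2plus (adjusted p = 0.0635 and 0.076). Pdia6, at 249, 259 and 261 CPM, then 247.5, 258.5 and 267 CPM, then 302, 308 and 306 CPM, followed the pattern of Hspa5, 1.19-fold higher in the 3SL-labelled than the untreated-labelled libraries (log2 change 0.25 ± 0.04 SE, adjusted p = 2.32e-05). Pdia3 (Erp57), the partner of the lectin chaperones, was higher by 1.10-fold in the Pam3CSK4-labelled and 1.11-fold in the 3SL-labelled libraries than in the untreated-labelled ones (adjusted p = 1.97e-04 and 1.01e-03).

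**Figure D4:**
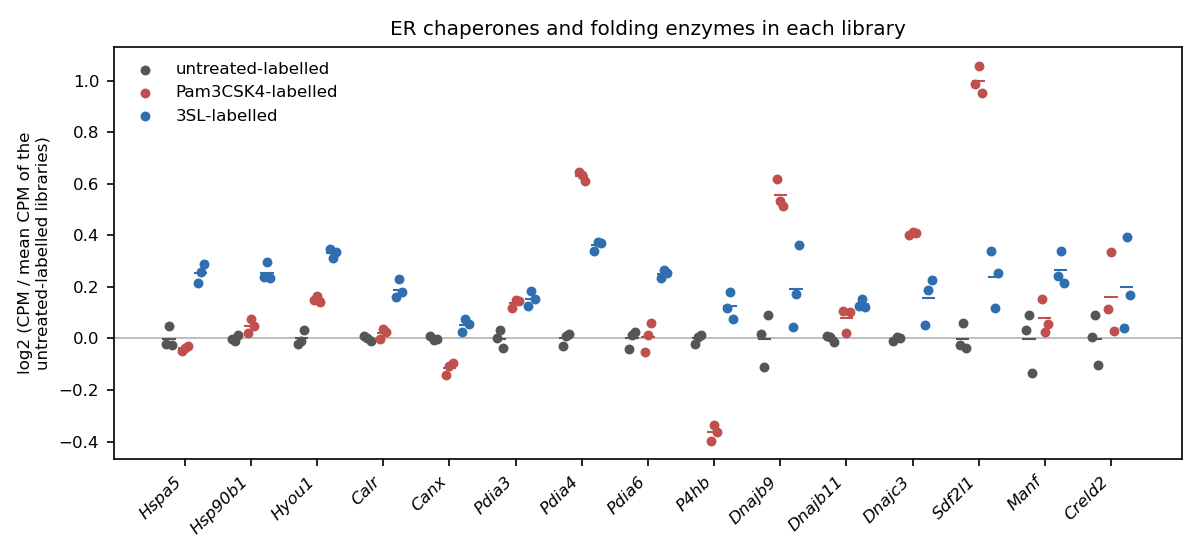
Level of each chaperone or folding enzyme in each library, as log2 of its CPM over the mean CPM of the untreated-labelled libraries, with short lines at the group means. The 3SL-labelled libraries (blue) are all above the other 6 in 9 genes on this TMM scale (in P4hb alone of the 15 with library totals), and the Pam3CSK4-labelled libraries (red) are highest in Sdf2l1, Pdia4, Dnajb9 and Dnajc3.

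The Hspa5 cochaperones Sdf2l1, Dnajb9 and Dnajc3 were highest in the Pam3CSK4-labelled libraries. Sdf2l1, which forms a complex with the J protein Dnajb11, was at 39.1, 41.6 and 38.9 CPM, then 79.0, 83.0 and 77.3 CPM, then 50.5, 43.3 and 47.6 CPM. The groups did not overlap, and the Pam3CSK4-labelled libraries were 1.99-fold above the untreated-labelled ones (log2 change 0.99 ± 0.06 SE, adjusted p = 3.18e-15). The 1.16-fold higher level in the 3SL-labelled than the untreated-labelled libraries (adjusted p = 0.0255) was lost under DESeq2 (adjusted p = 0.0675) and on leaving out A2, C2, A2plus or C2plus (adjusted p = 0.0571 to 0.154). Dnajb9 (ERdj4), a target of XBP1 that directs Hspa5 to IRE1 and to degradation, was at 31.04, 28.4 and 32.7 CPM, then 47.1, 44.4 and 43.9 CPM, then 31.6, 34.6 and 39.4 CPM. The Pam3CSK4-labelled libraries stood above the other 6, 1.49-fold above the untreated-labelled ones (adjusted p = 3.76e-08), and the 1.17-fold difference between the other groups was not called (adjusted p = 0.0664). It was called without C2 or without A2plus (adjusted p = 0.0382 and 0.0304). The same held with library totals alone and with every gene with at least 1 count (adjusted p = 0.0264 and 0.0473). Dnajc3 (p58IPK), a J protein known also as an inhibitor of PERK, was at 122, 123 and 123 CPM, then 162, 163 and 163 CPM, then 127, 140 and 144 CPM. The untreated-labelled libraries were lowest and the Pam3CSK4-labelled ones highest, 1.33-fold apart (adjusted p = 7.34e-10). The 3SL-labelled libraries were 1.12-fold above the untreated-labelled ones (adjusted p = 0.0143), a call that was lost on leaving out A2, B2, B2plus or C2plus (adjusted p = 0.0516 to 0.1).

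Dnajb11, the J protein that pairs with Sdf2l1, did not share its change. It was 1.05-fold higher in the Pam3CSK4-labelled than in the untreated-labelled libraries, which was not called (adjusted p = 0.073) except without D2 (adjusted p = 0.028). It was 1.10-fold higher in the 3SL-labelled ones (adjusted p = 0.0299), a call lost under DESeq2 (adjusted p = 0.0883) and on leaving out any untreated-labelled library, A2plus or B2plus (adjusted p = 0.0618 to 0.0935). Manf, a secreted factor that binds Hspa5, was 1.19-fold higher in the 3SL-labelled than the untreated-labelled libraries (adjusted p = 1.75e-03). Creld2, a secreted ER stress protein at 33.5 to 47.3 CPM, was not called in any comparison, though the difference of 1.11-fold between the Pam3CSK4-labelled and the untreated-labelled libraries was called without B2 or without D3 (adjusted p = 0.0425 and 0.0229). Leaving out 1 library at a time, between 8 and 12 of the 15 chaperones were called higher in the 3SL-labelled than the untreated-labelled libraries. The call of 8 of them (Hspa5, Hsp90b1, Hyou1, Calr, Pdia3, Pdia4, Pdia6 and Manf) was kept in every such fit and under every other alternative run.

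Of the 6 degradation genes, 4 were lower in the Pam3CSK4-labelled than the untreated-labelled libraries and 1 was higher, where 35.9% and 39.0% of all genes were. When only library totals were used Herpud1 and Derl2 were still called lower, while the calls of Syvn1 and Sel1l were lost (log2 -0.102 and -0.001, adjusted p = 0.0799 and 0.989). Herpud1, a membrane protein that assembles the retrotranslocation complex and a target of both ATF6 and ATF4, was at 58.4, 58.8 and 54.3 CPM, then 20.2, 18.9 and 20.2 CPM, then 59.2, 64.6 and 55.0 CPM. The Pam3CSK4-labelled libraries stood well below the other 6, which overlapped, and were 2.92-fold below the untreated-labelled ones (log2 change -1.54 ± 0.07 SE, adjusted p = 1.38e-17). The 3SL-labelled libraries were 3.02-fold above the Pam3CSK4-labelled ones. Derl2, a Derlin channel protein, was at 118, 113 and 112.5 CPM, then 83.7, 81.4 and 79.6 CPM, then 111, 117 and 118 CPM. Its Pam3CSK4-labelled libraries were again the 3 lowest, by 1.41-fold (adjusted p = 4.14e-11). Syvn1 (Hrd1), the ubiquitin ligase of the pathway, was at 59.7, 63.2 and 67.2 CPM, then 47.3, 48.2 and 46.4 CPM, then 67.7, 69.5 and 66.4 CPM. It was 1.33-fold lower in the Pam3CSK4-labelled than in the untreated-labelled libraries (adjusted p = 6.60e-08).

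Sel1l, the partner that holds Syvn1 in place, was 1.24-fold lower there (adjusted p = 2.48e-08), at a mean of 224 ± 7.03 CPM against 279 ± 3.42 CPM (SD, n = 3). Edem1, a lectin that takes up misfolded glycoproteins and a known XBP1 target, went the other way, 1.18-fold higher in the Pam3CSK4-labelled libraries (adjusted p = 1.13e-06) and 1.10-fold lower in the 3SL-labelled than the Pam3CSK4-labelled ones. Derl1 was not called in any comparison, with means between 128 and 134 CPM, and was called higher in the 3SL-labelled than the Pam3CSK4-labelled libraries without A2plus (adjusted p = 0.026). Between the 3SL-labelled and the untreated-labelled libraries the log2 changes of all 6 lay between 0.01 and 0.11, with standard errors of at most 0.06.

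The transcripts of the sensors did not move as a group. Atf6, which is cut in the Golgi to release a transcription factor, was at 96.6, 94.6 and 98.1 CPM, then 160.0, 161.6 and 157.6 CPM, then 121.6, 108.5 and 116.7 CPM. The groups did not overlap, with the Pam3CSK4-labelled libraries 1.66-fold (log2 change 0.73 ± 0.04 SE, adjusted p = 4.58e-15) and the 3SL-labelled ones 1.20-fold (adjusted p = 1.98e-04) above the untreated-labelled ones. Eif2ak3 (PERK), the eIF2 kinase of the ER, was at 21.1, 22.7 and 22.8 CPM, then 32.96, 34.8 and 32.6 CPM, then 29.4, 27.1 and 27.04 CPM. It showed the same order, 1.51-fold (adjusted p = 9.88e-09) and 1.25-fold (adjusted p = 5.78e-03) above the untreated-labelled libraries.

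Ern1 (IRE1), the kinase and endonuclease that splices Xbp1, was at 52.5, 51.9 and 54.0 CPM, then 46.3, 52.6 and 49.5 CPM, then 55.7, 52.8 and 52.5 CPM. The groups overlapped and Ern1 was not called in any comparison, except as higher in the 3SL-labelled than the Pam3CSK4-labelled libraries when D2 was left out (adjusted p = 0.0404). Xbp1 was at 147.5, 155 and 153 CPM, then 138, 131 and 129 CPM, then 157, 166 and 162 CPM. It was 1.15-fold lower in the Pam3CSK4-labelled than in the untreated-labelled libraries (log2 change -0.20 ± 0.04 SE, adjusted p = 8.57e-05), but higher without the TMM factors, and the 1.06-fold difference between the 3SL-labelled and the untreated-labelled libraries was not called (adjusted p = 0.196). With library totals alone that last difference was called higher (adjusted p = 0.0386). Counts per gene do not separate spliced from unspliced Xbp1, nor cut from whole ATF6.

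**Figure D5:**
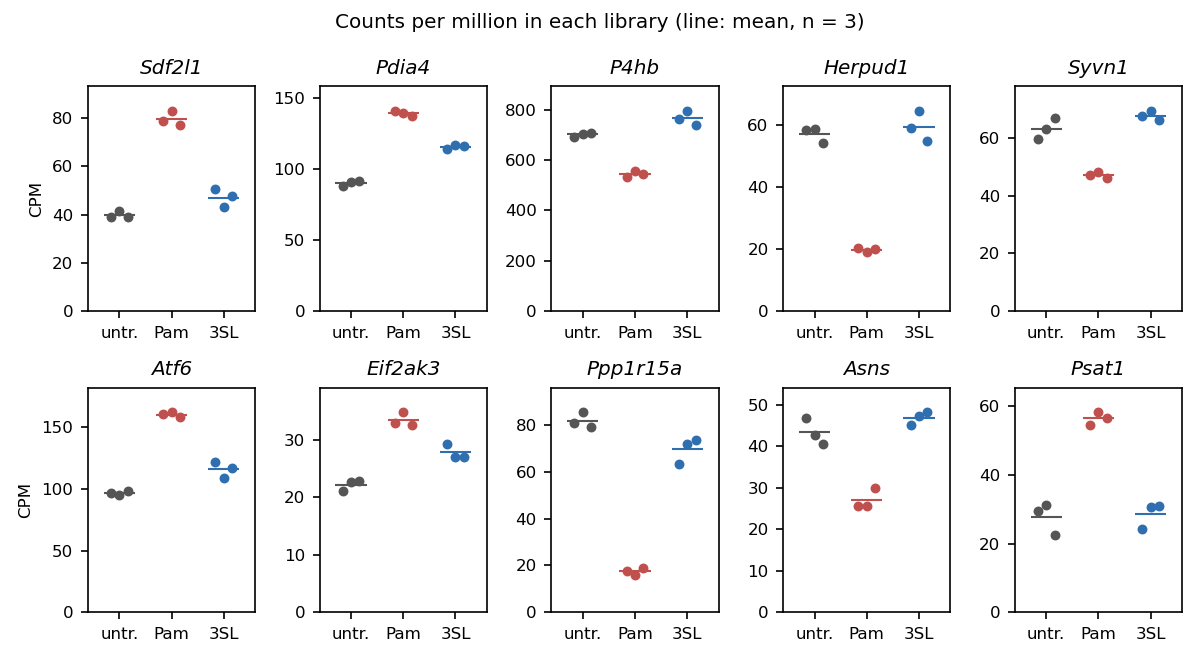
CPM of 10 members in each library, with lines at the means of 3 libraries, for the untreated-labelled (untr.), Pam3CSK4-labelled (Pam) and 3SL-labelled (3SL) groups; every vertical axis starts at 0. Sdf2l1, Pdia4, Atf6, Eif2ak3 and Psat1 are highest in the Pam3CSK4-labelled libraries, and P4hb, Herpud1, Syvn1, Ppp1r15a and Asns lowest.

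The ATF4 class split within itself. Ppp1r15a (Gadd34), which brings a phosphatase to eIF2 and ends the block on protein synthesis, was at 80.6, 85.2 and 79.0 CPM, then 17.7, 16.0 and 18.8 CPM, then 63.4, 71.9 and 73.6 CPM. The groups did not overlap, and the Pam3CSK4-labelled libraries were 4.72-fold below the untreated-labelled ones (log2 change -2.24 ± 0.07 SE, adjusted p = 1.90e-21), the widest difference of any member in that comparison. The 3SL-labelled libraries were 1.17-fold below the untreated-labelled ones (adjusted p = 0.0106), a call lost without B2 or without A2plus (adjusted p = 0.107 and 0.11). Atf4, whose own translation rises when eIF2 is phosphorylated, was at 186, 181 and 176 CPM, then 136, 127 and 136 CPM, then 164, 168.5 and 162.5 CPM. It was lowest in the Pam3CSK4-labelled libraries, 1.36-fold below the untreated-labelled ones (adjusted p = 5.97e-11). The 3SL-labelled libraries were 1.10-fold below the untreated-labelled ones (adjusted p = 0.0332), which was lost on leaving out A2, B2, A2plus or C2plus (adjusted p = 0.0926 to 0.152).

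Of the amino acid enzymes, Asns and Psat1 changed in opposite directions. Asns, asparagine synthetase, was at 46.8, 42.6 and 40.5 CPM, then 25.5, 25.7 and 29.96 CPM, then 45.1, 47.3 and 48.1 CPM. Its Pam3CSK4-labelled libraries were the 3 lowest, 1.61-fold below the untreated-labelled ones (log2 change -0.69 ± 0.07 SE, adjusted p = 1.33e-09). Psat1, an aminotransferase of serine synthesis, was at 29.6, 31.3 and 22.5 CPM, then 54.3, 58.0 and 56.5 CPM, then 24.3, 30.6 and 30.9 CPM. Its Pam3CSK4-labelled libraries were the 3 highest, 1.96-fold above the untreated-labelled ones (log2 change 0.97 ± 0.08 SE, adjusted p = 2.14e-11), while the other groups overlapped at 1.01-fold.

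Sesn2 and Ddit4 are stress genes known to restrain mTORC1, the kinase complex that drives growth. Sesn2 was at 12.6, 12.3 and 14.7 CPM, then 15.1, 15.8 and 17.9 CPM, then 13.9, 14.6 and 14.7 CPM. It was 1.26-fold higher in the Pam3CSK4-labelled than in the untreated-labelled libraries (adjusted p = 2.10e-03), a call lost when all libraries were thinned to the smallest total (adjusted p = 0.0925). Ddit4 was low, at 2.47, 2.26 and 2.86 CPM, then 1.20, 1.26 and 1.68 CPM, then 3.37, 4.11 and 2.14 CPM. It was 1.77-fold lower in the Pam3CSK4-labelled than in the untreated-labelled libraries (log2 change -0.82 ± 0.26 SE, adjusted p = 6.16e-03), a call lost with library totals alone (adjusted p = 0.0769), and 2.32-fold higher in the 3SL-labelled than the Pam3CSK4-labelled ones (adjusted p = 4.16e-04). Ddit3 (CHOP), a transcription factor of stress-induced cell death, was 1.23-fold higher in the Pam3CSK4-labelled than in the untreated-labelled libraries (adjusted p = 7.29e-04), at 29.3 ± 0.793 against 23.7 ± 2.30 CPM (SD, n = 3). Trib3, a pseudokinase induced through ATF4 and CHOP, was at 1.83 to 2.75 CPM and was not called in any comparison, with standard errors of 0.23 to 0.27 on the log2 scale.

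Levels between genes were compared as CPM per kb of exon. In the untreated-labelled libraries Calr stood highest, at 348 ± 2.03 (SD, n = 3), followed by Hspa5 at 290 ± 8.69. Hsp90b1 at 246 ± 2.12 and P4hb at 245 ± 3.10 did not differ beyond their spread, and Pdia3 at 215 ± 5.30 and Canx at 168 ± 1.07 came next. Atf4 at 76.8 ± 2.13 was the highest of the factors, ahead of Xbp1 at 46.8 ± 1.25 and Atf6 at 10.5 ± 0.19. The sensors Ern1 at 6.46 ± 0.13 and Eif2ak3 at 3.68 ± 0.16 CPM per kb were far below the chaperones.

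Other genes of the same pathways, listed by function, gave a setting for the members. In the 3SL-labelled versus the untreated-labelled libraries, their counts stand beside 3.83% of all genes called higher and 5.11% lower, and lists this small can fall on either side. There 2 of 20 other ER folding and oxidation genes were called higher (Pdia5 and Txndc11, by 1.67-fold and 1.17-fold) and 1 lower (Selenof, by 1.09-fold). Pdia5 was low, at means of 4.44 CPM in the 3SL-labelled and 2.48 CPM in the untreated-labelled libraries. Of 19 other degradation genes 2 were called higher (Edem3 and March6, by 1.15-fold and 1.11-fold), and of 16 genes of ER entry 2 (Sec63 and Ssr1, by 1.11-fold and 1.08-fold). Of 20 other kinases, sensors and eIF2 regulators 1 was lower, Eif2ak2 (PKR) by 1.15-fold. None of 13 amino acid genes was called by edgeR, though 4 had an unadjusted p under 0.05 and DESeq2 called 1 lower. Of 15 other ATF4 targets 1 was lower (Cdkn1a, by 1.10-fold), and of 19 cytosolic tRNA synthetases 2 were higher (Eprs and Vars, both by 1.12-fold) and 1 lower (Kars, by 1.13-fold). The median log2 change of these 7 lists lay between -0.06 and 0.05, against 0.22 for the 15 chaperones.

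In the Pam3CSK4-labelled against the untreated-labelled libraries the counts of these lists stand beside 39.0% of all genes called higher and 35.9% lower. With library totals alone the median log2 change of all genes moved from 0.03 to 0.34, so calls of small differences depend on the scaling. On the TMM scale the median was -0.17 for ER entry and -0.28 for the other degradation genes. Counts of these lists without the TMM factors were not taken. In ER entry 12 of 16 genes were lower and 1 higher, with the signal recognition particle receptor Srpr lower by 1.60-fold. Of the other degradation genes 11 of 19 were lower and 3 higher, with the conjugating enzyme Ube2j1 lower by 1.73-fold. Of the other folding genes 8 of 20 were lower and 5 higher, and they included the oxidase Ero1l, lower by 4.62-fold, and the chaperone Erp29, higher by 2.16-fold.

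On the eIF2 side, 11 of 20 kinases, sensors and regulators were lower and 4 higher. Ppp1r15b, the constitutive partner of the same phosphatase as Ppp1r15a, was lower by 2.65-fold, and Eif2ak4 (GCN2), the kinase that senses amino acid shortage, was higher by 2.06-fold. Among amino acid genes 5 of 13 were lower and 6 higher, with the cystine carrier Slc7a11 lower by 141-fold and the carriers Slc1a5 and Slc38a2 higher by 2.21-fold and 2.22-fold. Of the other ATF4 targets 9 of 15 were lower, among them Cebpb by 9.92-fold and Nupr1 by 8.60-fold, and 4 were higher, among them Gdf15 by 2.17-fold. Of 19 tRNA synthetases 11 were higher and 7 lower. In the 3SL-labelled against the Pam3CSK4-labelled libraries 34.7% of all genes were called higher and 36.8% lower. Higher and lower calls were 11 and 7 of 20 for folding and 12 and 1 of 19 for degradation. They were 10 and 0 of 16 for ER entry and 11 and 4 of 20 for the eIF2 list. Amino acid genes gave 4 and 5 of 13, other ATF4 targets 9 and 5 of 15, and synthetases 8 and 6 of 19. With library totals alone the median log2 change of all genes here moved from -0.02 to -0.29, so calls of small differences again depend on the scaling.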

How the data were processed

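Libraries were made from total RNA with the NEBNext Ultra RNA kit, per the labels' protocols. The authors deposited raw read counts per gene in 1 table for the whole series, and 15 columns of other samples in it were not used. Per the submitters' processing notes, HISAT2 2.1.0, Subread and featureCounts were named, and the build hg38, although every identifier is a mouse Ensembl gene, so the build behind the counts is unclear. Annotation release and strand setting are not given in the sources used here, so reads of overlapping or antisense genes cannot be told apart.

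Groups came from the label of each sample. The test was run in edgeR 4.0.16 under R 4.3.3 (filterByExpr, TMM, 1 mean per group over 9 libraries, quasi-likelihood test, Benjamini-Hochberg threshold 0.05), which kept 11469 genes. CPM uses TMM-scaled totals. The SE of a log2 change was derived from the test, as its absolute value over the square root of the quasi-likelihood F statistic. The floor of 3 counts covers counting error only, since the reads are not stated to carry molecular identifiers. The common dispersion was 0.00133 (coefficient of variation 0.0365), and libraries of a group differed beyond sampling noise (chi-square per degree of freedom 1.83 to 3.10), so none was merged. Coordinates and exon lengths are GENCODE M21 on GRCm38, and promoters are RefSeq's on GRCm38.p6; 29 of the 32 member promoters matched a transcript in orientation.

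Members, classes and lists were chosen with earlier results of these data known. Values are given per library for all 4 sensors and factors, for the 5 chaperones, 3 degradation genes and 6 genes of the ATF4 class with the largest change in the Pam3CSK4-labelled against the untreated-labelled libraries, and for the 6 members with the smallest p in the 3SL-labelled against the untreated-labelled ones. Alternatives were DESeq2 1.42.0, its size factors in edgeR, library totals alone, every gene with at least 1 count, the 2 groups alone, thinning to the smallest total, a block by code letter, and leaving out each library.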

Additional observations from a re-analysis of the deposited data

How the results depend on the processing

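The counts of members called in both comparisons with the Pam3CSK4-labelled libraries depended on the scaling. With library totals alone, 23 members were higher and 5 lower in the Pam3CSK4-labelled against the untreated-labelled libraries, where TMM gave 12 and 11, and 7 higher and 19 lower in the 3SL-labelled against the Pam3CSK4-labelled ones, where TMM gave 17 and 9. Of all 11469 genes tested, library totals alone gave 6882 higher and 2380 lower in the first comparison, and 2434 higher and 6393 lower in the second. The share of calls over all genes that were higher went from 52.0% to 74.3%, from 48.5% to 27.6% and, in the 3SL-labelled versus the untreated-labelled libraries, from 42.8% to 66.0%, and the median log2 change of all genes there to 0.04. Directions reversed under this scaling alone. In the first comparison the log2 changes became 0.273 for Hspa5, 0.198 for Canx, 0.28 for Derl1, 0.229 for Ern1 and 0.115 for Xbp1. In the second they became -0.066 for Hsp90b1, -0.096 for Hyou1, -0.104 for Calr, -0.106 for Canx, -0.257 for Pdia3, -0.029 for Pdia6, -0.217 for Dnajb11, -0.083 for Manf, -0.228 for Creld2, -0.202 for Derl1 and -0.166 for Ern1. In the 3SL-labelled versus the untreated-labelled libraries the 14 members higher became 18 with library totals alone and 10 without A2. Over all genes tested, the 439 called higher became 788 and 325 under these settings. The 2 members lower in the 3SL-labelled versus the untreated-labelled libraries were 1 with library totals alone, 1 with thinning and 1 with the replicate block by letter, and 0 to 2 with a library left out (0 without B2 or without A2plus). The cause was not tested. The 12 chaperones called higher there were 10 under DESeq2, 9 with thinning, 14 with library totals alone and 11 with the replicate block, and 8 to 12 with a library left out. Deviations from the group mean of A2 and A2plus, B2 and B2plus, and C2 and C2plus correlated at -0.02, 0.04 and 0.01. Counting noise can hide a shared origin in such values, so they cannot tell whether libraries of the same letter are paired. Depth limits Chac1, Trib3 and Ddit4, and with 3 libraries per group of unstated origin the spread between cultures is unknown.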
